A study of Mus musculus with 4 samples.

Results

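The Toll-like receptors and their adaptors were taken as 10 genes, Tlr1, Tlr2, Tlr3, Tlr4, Tlr6, Tlr7, Tlr9, Cd14, Cd180 and Myd88, and every probe set that the platform annotation assigns to these symbols alone was read. This gave 16 of the 45037 probe sets on the array that are not controls. A probe set was called past the filter when its mean over the 4 arrays lay above the median of all probe sets, a log2 intensity of 7.23, and 8 probe sets of 7 of the 10 genes were. Tlr1, Tlr3 and Tlr7 had no probe set past the filter.

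The cells were sorted from mouse bone marrow as LSK cells, which lack lineage markers, carry c-Kit and Sca-1, and hold the stem cells and multipotent progenitors, and as myeloid progenitors (MP), which lack Sca-1. Mice labelled wild type (WT) were Smo flox/flox, Mx1Cre- and mice labelled Smo deficient were Smo flox/flox, Mx1Cre+, so the controls also carried floxed alleles of Smo, the gene of the hedgehog signal transducer Smoothened. All mice, controls included, had received 3 intraperitoneal injections of polyI:C at 20 ug per g, which turns on the interferon-responsive Mx1 promoter that drives Cre, 6 weeks before the marrow was collected. Cells of 4 mice of a genotype, males and females, were pooled before both populations were sorted, so each of the 4 groups is 1 array and each genotype is 1 pool. The strain label reads C57BL/6x129 for WT LSK, C57BL/6x130 for Smo-deficient LSK, C57BL/6x131 for WT MP and C57BL/6x132 for Smo-deficient MP. LSK and MP cells of a genotype came from the same pool of mice, so their labels cannot mark different strains. The ages of the mice are not given in the sources used here.

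Toll-like receptors recognise conserved molecules of microbes and signal mostly through the adaptor MyD88 to NF-kB and interferon regulatory factors. At the cell surface TLR2 pairs with TLR1 or TLR6 to bind lipopeptides, and TLR4 with its partner MD-2 binds lipopolysaccharide that CD14 hands over, while TLR3, TLR7 and TLR9 bind nucleic acids in endosomes. TLR3, which signals without MyD88, is the endosomal receptor for double-stranded RNA, of which the injected polyI:C is a synthetic form. CD180, paired with MD-1, resembles TLR4 outside the cell but lacks the signalling domain. Stem and progenitor cells of the marrow carry some of these receptors, and their ligands are known to push progenitors towards myeloid cells.

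The promoter of Tlr2 is shown because Tlr2 is the Toll-like receptor with the largest genotype difference past the filter and because NF-kB, the factor that the receptors activate, is known to bind such promoters. It is the RefSeq window of build GRCm38.p6 from 250 bases before to 50 after the start, at chr3:83841559-83841858 on the minus strand, written 5′ to 3′ on the gene's strand. Capitals mark matches, on either strand and with overlapping matches joined, to an NF-kB-like core (GGGANTT).
Tlr2: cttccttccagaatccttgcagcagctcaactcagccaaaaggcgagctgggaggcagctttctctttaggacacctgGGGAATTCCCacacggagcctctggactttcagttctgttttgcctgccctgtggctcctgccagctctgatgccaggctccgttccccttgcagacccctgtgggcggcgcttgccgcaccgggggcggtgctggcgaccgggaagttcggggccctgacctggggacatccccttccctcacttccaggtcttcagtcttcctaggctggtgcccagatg
The window held 2 overlapping matches in 1 stretch, and 16.5% of the 32851 RefSeq promoter windows of this length hold at least 1. Of the 10 genes 7 had a promoter entry. Tlr3 had 1 match, and in the windows of Tlr1, Tlr6, Tlr9, Cd180 and Myd88 these letters were not found. The core was chosen after longer NF-kB-like and interferon-response-like patterns had been searched in these windows, so the match in Tlr2 is a description of this window.

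On the Smo probe sets that were past the filter, the targeted gene was lower in both Smo-deficient arrays by differences of -4.68 and -3.05 in LSK and -4.05 and -1.78 in MP on the log2 scale. Kit and Cd34, which mark the sorted cells, were past the filter on every array, with log2 intensities from 12.31 to 12.65 for Kit and from 12.04 to 13.61 for Cd34. Kit, Cd34, Flt3 and Mpo, the 4 sort markers read, were all higher in Smo-deficient cells, with median differences of 0.30 in LSK and 0.42 in MP. Flt3 differed most, by 1.21 in LSK and 0.95 in MP. Ly6a, which encodes Sca-1, is not analysed here. Of the 5 lineage gate markers read, 4 were past the filter. They were Ptprc (12.15 to 13.37), which blood progenitors also express, and the T cell genes Cd3e, Cd4 and Cd8a. These T cell genes were at 8.05 to 8.14, 8.40 to 8.57 and 8.64 to 8.89. The Cd8a probe set has a suffix that marks probes that may bind other transcripts. Of the 7 T and NK cell markers read, 4 were past the filter, namely Cd3e, Cd4, Cd8a and Nkg7 (11.86 to 12.31). Cd3d (6.59 to 6.75), Cd3g (4.78 to 5.04) and Ncr1 (6.61 to 6.76) were below its level on all arrays. Whether T cell transcripts were present was not tested. Itgam, the myeloid marker, was below the level of the filter on all arrays, from 6.01 to 6.52. With 1 array per group, no difference between genotypes has a replicate, and none was tested.

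**Figure D1:**
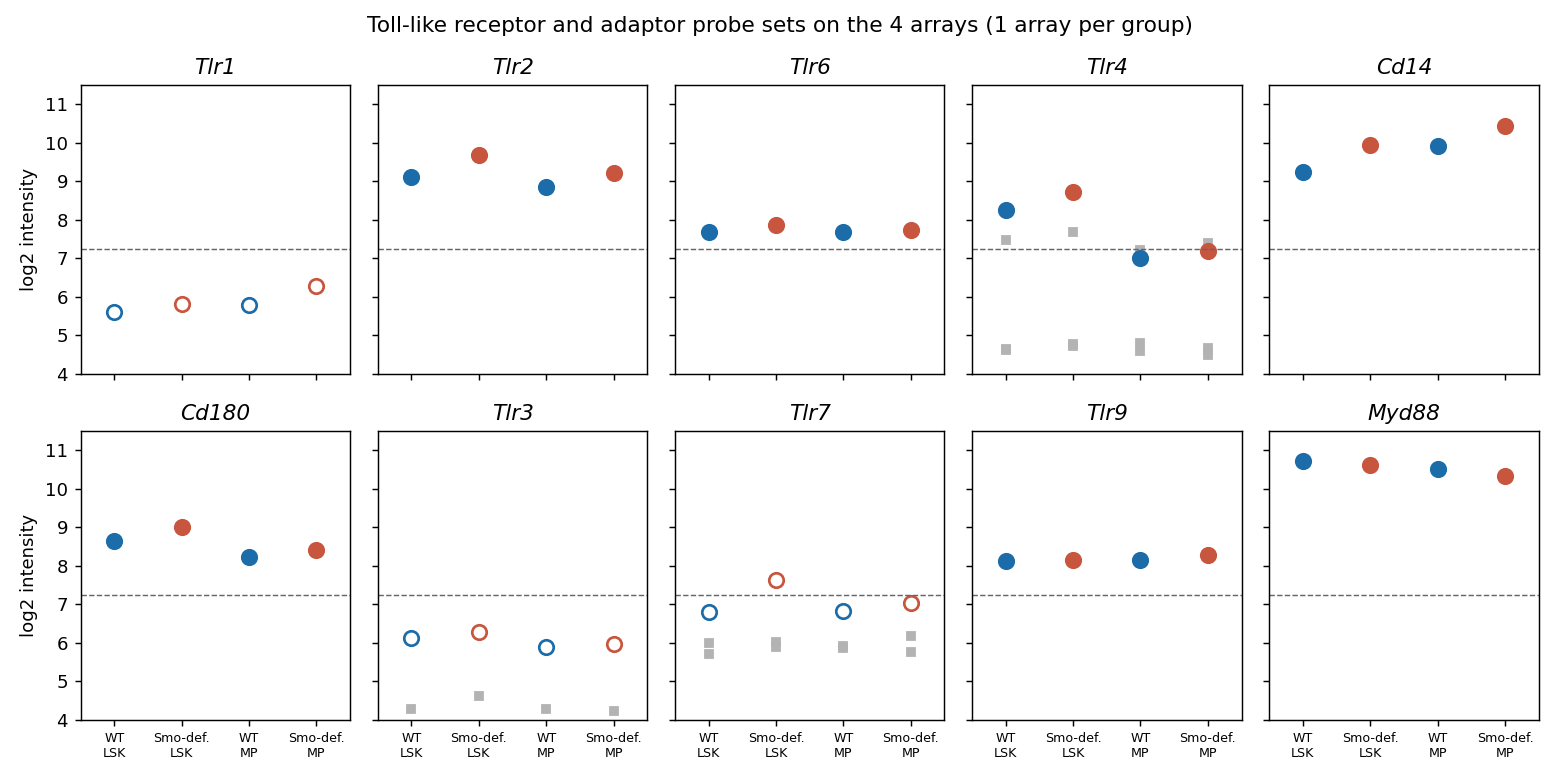
The log2 intensity (vertical axis) of each of the 10 genes on each of the 4 arrays (horizontal axis), with blue for wild type and red for Smo deficient. Circles are the probe set with the highest mean, filled when past the filter (dashed line, 7.23), and grey squares are the other probe sets. Cd14 and Tlr2 are higher in Smo-deficient than in wild-type cells of each population, Tlr4 is higher in LSK than in MP, and Tlr1 and Tlr3 lie below the filter on all arrays.

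The comparison of LSK with MP cells asks which genes are enriched in the stem cell fraction. Tlr4 and Cd180 were higher in LSK and Cd14 was higher in MP, while 5 of the 8 probe sets past the filter were not called. The test was limma's moderated linear model over all 22518 probe sets past the filter, in which each pool, and so each genotype, was a block, and a call was a Benjamini-Hochberg adjusted p under 0.05. It called 15.1% of all probe sets higher and 7.19% lower in LSK, against 2 higher and 1 lower among the 8. Each pair of values comes from 1 pool, and n is the 2 pools of different genotype. The error below is limma's moderated standard error, which also draws on the spread of the other probe sets and can exceed the spread between the pools.

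Tlr4, the lipopolysaccharide receptor, had log2 intensities of 8.27 (WT) and 8.72 (Smo-deficient) in LSK and 7.01 (WT) and 7.19 (Smo-deficient) in MP on probe set 1418162_at. Both LSK arrays lay above both MP arrays, and both MP values were below the level of the filter, so the size of the difference depends on the background there. LSK exceeded MP by 1.26 among WT cells and by 1.53 among Smo-deficient cells, a mean of 1.39 ± 0.12 (SE, n = 2 pools; limma adjusted p = 0.00073). This probe set passed the filter through its LSK values, and in the fit with no filter the adjusted p was 0.00065. A second Tlr4 probe set past the filter, 1418163_at, was read at 7.47, 7.69, 7.23 and 7.40 in the same order. There the LSK arrays were also above the MP arrays, but the mean difference of 0.27 ± 0.11 was not called (limma adjusted p = 0.13). The other probe sets of Tlr4, 1430695_at and 1442827_at, were dim on all arrays, from 4.50 to 4.81, so the call rests on 1418162_at.

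Cd14, which passes lipopolysaccharide to TLR4, went the other way from Tlr4. Its log2 intensity was 9.24 (WT) and 9.95 (Smo-deficient) in LSK and 9.92 (WT) and 10.44 (Smo-deficient) in MP. LSK was below MP within each pool, by differences of -0.68 and -0.49, but the populations overlapped, because Smo-deficient LSK was slightly above WT MP. The mean difference was -0.58 ± 0.12 (SE, n = 2 pools; limma adjusted p = 0.015). Without the pool as a block the adjusted p was 0.29, so the call of Cd14 holds only within pools.

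Cd180 encodes the receptor without a signalling domain. It was read at 8.65 (WT) and 9.0 (Smo-deficient) in LSK and 8.23 (WT) and 8.41 (Smo-deficient) in MP. Both LSK arrays lay above both MP arrays, as they did for 30.4% of all probe sets past the filter. The mean difference was 0.51 ± 0.11 (SE, n = 2 pools; limma adjusted p = 0.023), or 1.42-fold, and without the block the adjusted p was 0.14.

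The remaining receptors past the filter and the adaptor differed less between the populations. Tlr2, the lipopeptide receptor, was at 9.12 (WT) and 9.68 (Smo-deficient) in LSK and 8.85 (WT) and 9.23 (Smo-deficient) in MP, with WT LSK below Smo-deficient MP. Its mean difference of 0.36 ± 0.12 was not called (adjusted p = 0.069). Myd88, the shared adaptor, was higher on both LSK arrays, at 10.72 and 10.62 against 10.50 and 10.33, but its difference of 0.25 ± 0.11 was not called either (adjusted p = 0.14). Tlr6, a partner of TLR2, was at 7.68, 7.86, 7.67 and 7.75 and differed by 0.06 ± 0.11 (adjusted p = 0.72). Tlr9, the receptor for unmethylated CpG DNA, stayed between 8.13 and 8.27 on all 4 arrays and differed by -0.08 ± 0.11 (adjusted p = 0.65). A difference that was not called is not shown to be absent, since each probe set leaves the model only 1 residual degree of freedom before its variance is moderated.

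**Figure D2:**
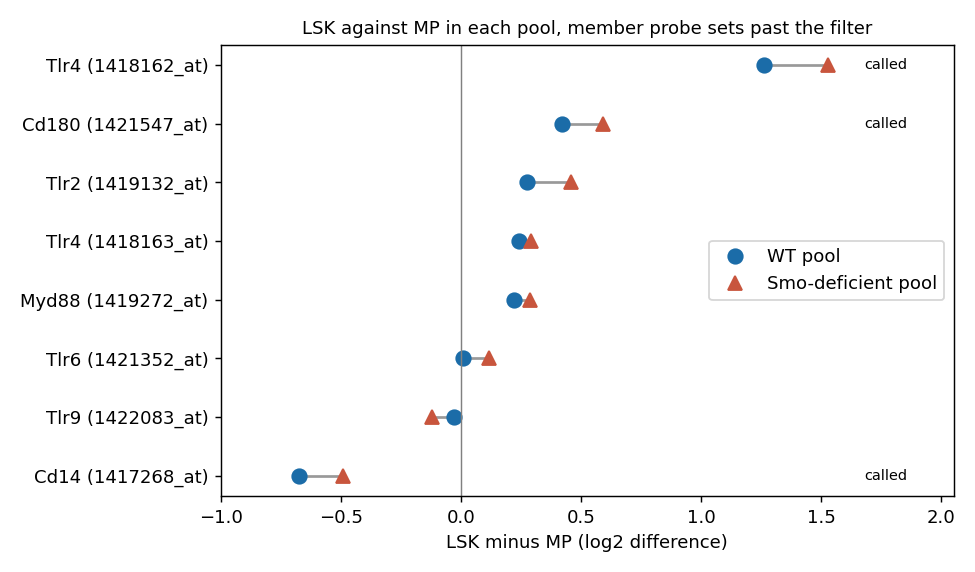
The log2 difference of LSK minus MP (horizontal axis) in the wild-type pool (circles) and the Smo-deficient pool (triangles) for the 8 probe sets of these genes past the filter, with those called by limma marked. Tlr4 on 1418162_at stands farthest to the right, at 1.26 and 1.53, and Cd14 is the single gene well to the left of 0, at -0.68 and -0.49.

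The comparison of genotypes sets Smo-deficient against WT cells of each population. The genotypes also differ in Cre and in the pool of mice, so the loss of Smo cannot be told apart from these. In Smo-deficient minus WT, Xist was at -0.89 in LSK and -0.47 in MP, and the Y-linked Kdm5d at 1.67 and 1.13. The part of the sexes of the mice in the values below was not tested. Most of the 10 genes had higher intensities in Smo-deficient cells, led among those past the filter by Cd14 and Tlr2 in both populations, but none of the 10 genes reached 2-fold in LSK or in MP. Of all probe sets past the filter, 0.595% were 2-fold or more above WT in LSK and 0.226% that far below it, beside 0.28% and 0.36% in MP. At 1.5-fold, Cd14 and the dim Tlr7 were higher in LSK, no gene was lower there, and in MP no gene of the 10 was past it in either direction. After quantile or cyclic loess normalization, however, Cd14 was past it in MP, at 0.60 and 0.63 against a log2 threshold of 0.58. The shares of all probe sets past 1.5-fold were 3.06% higher and 0.884% lower in LSK and 2.35% higher and 2.63% lower in MP. On the probe set with the highest mean per gene, 9 of the 10 genes had a difference above 0 in LSK and 9 in MP, with Myd88 the exception in both, and 3 of the 9 were below the filter. Of all probe sets past the filter, 46.7% had a difference above 0 in LSK, 40.3% in MP and 26.1% in both. The median of the 10 genes was 0.28 in LSK and 0.19 in MP, beside -0.03 in both populations over the 18193 named genes. Both populations of each genotype were sorted from 1 pool, so LSK and MP do not repeat each other.

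Cd14 had the largest genotype difference of the genes past the filter. Smo-deficient LSK exceeded WT LSK by 0.71 (1.63-fold) and Smo-deficient MP exceeded WT MP by 0.52 (1.43-fold). Of all probe sets past the filter, 1.98% were at least as much higher in LSK and 3.19% in MP. Both Smo-deficient arrays lay above both WT arrays, with Smo-deficient LSK only just above WT MP, which was so for 9.92% of all probe sets.

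Tlr2 followed, with differences of 0.56 (1.48-fold) in LSK and 0.38 (1.30-fold) in MP. At least this difference was reached by 3.42% of probe sets in LSK and 6.07% in MP. Both Smo-deficient arrays were again above both WT arrays, as they also were for Tlr6 (7.86 and 7.75 against 7.68 and 7.67). For Tlr6, whose product pairs with TLR2, the differences were 0.19 and 0.08, and Tlr1, the other partner, was below the filter at 5.61, 5.82, 5.78 and 6.27 in WT LSK, Smo-deficient LSK, WT MP and Smo-deficient MP. Its differences were 0.21 in LSK and 0.49 in MP, the latter above that of Tlr2 but between dim values.

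Tlr4 was higher by 0.45 in Smo-deficient LSK and 0.19 in Smo-deficient MP on 1418162_at, and by 0.22 and 0.17 on 1418163_at. Cd180 was higher by 0.36 and 0.19 in the same order. Differences as high as those of Tlr4 on 1418162_at were found for 5.57% of probe sets in LSK and 15.8% in MP, and as high as those of Cd180 for 8.76% and 15.7%. These receptors thus had smaller genotype differences than Cd14 and Tlr2 in both populations, with no replicate to tell the genes apart.

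Myd88 was slightly lower in Smo-deficient cells, by differences of -0.11 in LSK and -0.18 in MP, and about a difference of this size or lower was common, with 31.7% and 29.8% of probe sets. The size of the Myd88 difference in MP depended on the scaling, at -0.07 after quantile and -0.06 after cyclic loess normalization. For Tlr9 the differences were 0.02 (LSK) and 0.11 (MP). The sign for Tlr9 in LSK depended on the scaling, since it was -0.01 after quantile normalization.

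Among the endosomal receptors, Tlr7, the receptor for single-stranded RNA, is just below the filter, with a mean of 7.07 on 1422010_at. Its log2 intensity was 6.80 (WT) and 7.64 (Smo-deficient) in LSK and 6.81 (WT) and 7.04 (Smo-deficient) in MP. Smo-deficient LSK thus stood apart from the other arrays, 0.84 above WT LSK, while the difference in MP was 0.22. The dimmer Tlr7 probe sets did not show it, with differences of -0.11 (1449640_at) and 0.31 (1419848_x_at, whose suffix marks probes that may bind other transcripts) in LSK. Tlr7 lies on the X chromosome, and the pools also differed in sex-linked transcripts, with Xist at -0.89 and the Y-linked Kdm5d at 1.67 in Smo-deficient minus WT LSK, and their part in the Tlr7 value was not tested. Tlr3, which encodes an endosomal receptor of polyI:C, was dim on all arrays 6 weeks after the injections. It ranged from 5.89 to 6.27 on 1422782_s_at and from 4.24 to 4.62 on 1422781_at.

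**Figure D3:**
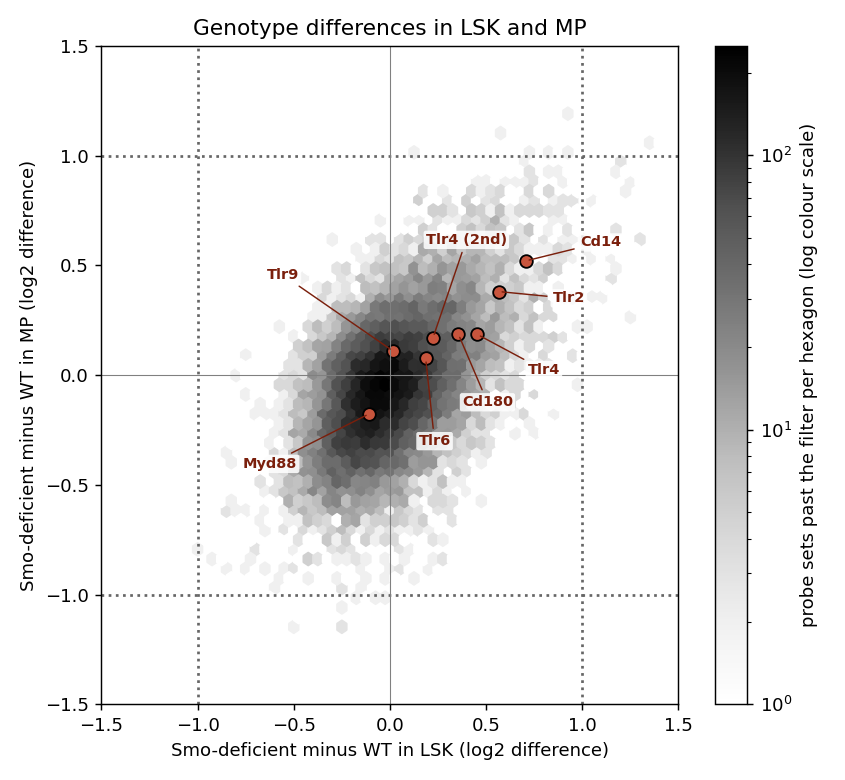
Smo-deficient minus WT log2 difference in LSK (horizontal axis) against that in MP (vertical axis), with all probe sets past the filter as grey hexagons whose darkness is their number on a log scale, and the 8 probe sets of these genes as labelled red points; dotted lines mark 2-fold and axes end at 1.5. Cd14 and Tlr2 lie in the upper right part of the cloud, at 0.71 and 0.52 and at 0.56 and 0.38, inside the 2-fold lines, and Myd88 is the point left of and below 0.

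Markers of several mature cell types were also higher in Smo-deficient LSK. There all 9 measured neutrophil markers were higher, with a median of 0.79, and 8 of 10 monocyte and macrophage markers, with a median of 0.66. The log2 of the summed neutrophil intensity was 16.33 (WT) and 17.02 (Smo-deficient) in LSK and 16.62 (WT) and 16.82 (Smo-deficient) in MP. The monocyte and macrophage sum was 13.99, 14.65, 14.25 and 14.72 in the same order. In Smo-deficient MP all 9 neutrophil markers but only 5 of the 10 monocyte and macrophage markers were higher, with medians of 0.21 and 0.09. Ccr2, a chemokine receptor of monocytes, was lower in both populations, by differences of -0.43 (LSK) and -0.15 (MP). Csf1r, the macrophage growth factor receptor gene, had the largest differences of the monocyte and macrophage markers, 1.21 in LSK and 1.09 in MP. Defining genes of neutrophils and macrophages were past the filter, among them S100a8, the calprotectin subunit gene, at 14.39 to 14.89, and Csf1r at 10.66 to 12.94. B cell markers, all 9 of them, were also higher in Smo-deficient LSK, with a median of 0.75, as were all 4 mature erythroid markers, with a median of 0.67. In MP 8 of the 9 and 3 of the 4 were higher, with medians of 0.35 and 0.14. T and NK cell markers had medians of 0.09 in LSK and 0.01 in MP, with 5 and 4 of 7 above 0. Conventional dendritic cell markers had medians of 0.22 in LSK and -0.01 in MP, with 5 and 4 of 8 above 0. For plasmacytoid dendritic cell markers the medians were 0.38 and 0.13, with 6 and 4 of 8 above 0. The part of all these cell types in the values of Cd14, Tlr2, Tlr4, Cd180 and Tlr7 was not tested. In sorted pools, more cells of a type and more RNA per cell cannot be told apart.

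The other genes of the pathway comprised 61 symbols in 7 groups, of which 53 were measured and 47 were past the filter on the probe set with the highest mean. In LSK against MP, limma called 15 of the 47 higher and 1 lower in LSK, beside 15.1% and 7.19% of all probe sets past the filter. The median was 0.16 over the 47 and -0.0023 over all probe sets past the filter. The 47 are the brightest probe set per gene and the background is every probe set, so the shares are not strictly alike. Without the pool as a block the calls fell to 2 higher and 0 lower. Of the 15, 4 were inflammatory response genes, 4 inhibitors, 3 kinases and ubiquitin ligases, 2 NF-kB and IRF factors, 1 an accessory protein and 1 an adaptor. Between genotypes, 4 of the 47 were past 2-fold upward in LSK and 1 in MP, and none was past it downward in either population, beside 0.595% upward and 0.226% downward of all probe sets in LSK and 0.28% and 0.36% in MP. The median difference of the 53 genes was 0.12 in LSK and 0.09 in MP.

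The partner proteins of the receptors did not all follow them. Ly96 encodes MD-2, the partner of TLR4, and was at 8.55, 8.95, 8.17 and 8.28 in WT LSK, Smo-deficient LSK, WT MP and Smo-deficient MP. Like Tlr4 it was higher in LSK, by 0.52 ± 0.12 (limma adjusted p = 0.026). Ly86 encodes MD-1, the partner of CD180, and was at 9.17, 10.52, 10.96 and 12.05. It was lower in LSK by a difference of -1.66 ± 0.12 (limma adjusted p = 0.0004), while Cd180 was higher there. Ly86 also had the largest genotype differences of the pathway genes past the filter, 1.35 in LSK and 1.08 in MP, against 0.36 and 0.19 for Cd180. Unc93b1, which carries the nucleic acid receptors to endosomes, was higher in Smo-deficient LSK by 0.51 and MP by 0.59. Lbp, the lipopolysaccharide-binding protein gene, was higher by 0.63 and 0.55. The chaperone genes Cnpy3 (-0.05 and 0.09) and Hsp90b1 (-0.07 and 0.07) differed little in the same order. Of the 7 accessory proteins and chaperones, 5 had a difference above 0 in LSK and 7 in MP.

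Among adaptors, Pik3ap1, which links Toll-like receptors to phosphoinositide 3-kinase, was higher by 1.13 in Smo-deficient LSK and 0.89 in MP on 1429831_at. Its dimmer probe set past the filter, 1421285_at, differed by -0.14 and 0.08. Sarm1, an adaptor that dampens the pathway, had the lowest difference in LSK at -0.27, and was at -0.35 in MP. Tlr5, the flagellin receptor, had differences of -0.26 (LSK) and -0.25 (MP), and Socs1, an inhibitor of cytokine signalling, by -0.19 and -0.21. Tab3 and Tab1, partners of the kinase TAK1, had the lowest differences in MP, at -0.46 and -0.37.

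Downstream, Nfkbiz, an inducible regulator of NF-kB, rose in LSK by 1.30 ± 0.13 (limma adjusted p = 0.0012) and was 1.07 higher in Smo-deficient LSK and 0.75 higher in Smo-deficient MP. Its other probe sets past the filter had the same signs, with genotype differences in LSK of 0.87 and 0.68. Ptgs2, the inducible prostaglandin synthase, and the chemokine gene Ccl4 rose in LSK by 1.24 ± 0.12 and 1.21 ± 0.16 (limma adjusted p = 0.0012 and 0.0032). The chemokine gene Cxcl2 was at 9.17 (WT) and 10.48 (Smo-deficient) in LSK and 8.85 (WT) and 9.48 (Smo-deficient) in MP, with genotype differences of 1.31 and 0.63. On the probe set with the highest mean, the smallest called differences in LSK were those of Irf5 (0.40, limma adjusted p = 0.045) and Tab2 (0.45, adjusted p = 0.0094). The other probe set past the filter differed by 0.00 for Irf5 and by 0.92 (adjusted p = 0.0023) for Tab2. Tnf, the tumour necrosis factor gene, differed by 0.19 between genotypes in LSK and by -0.03 between populations, and Il6 was below the filter on all arrays.

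**Figure D4:**
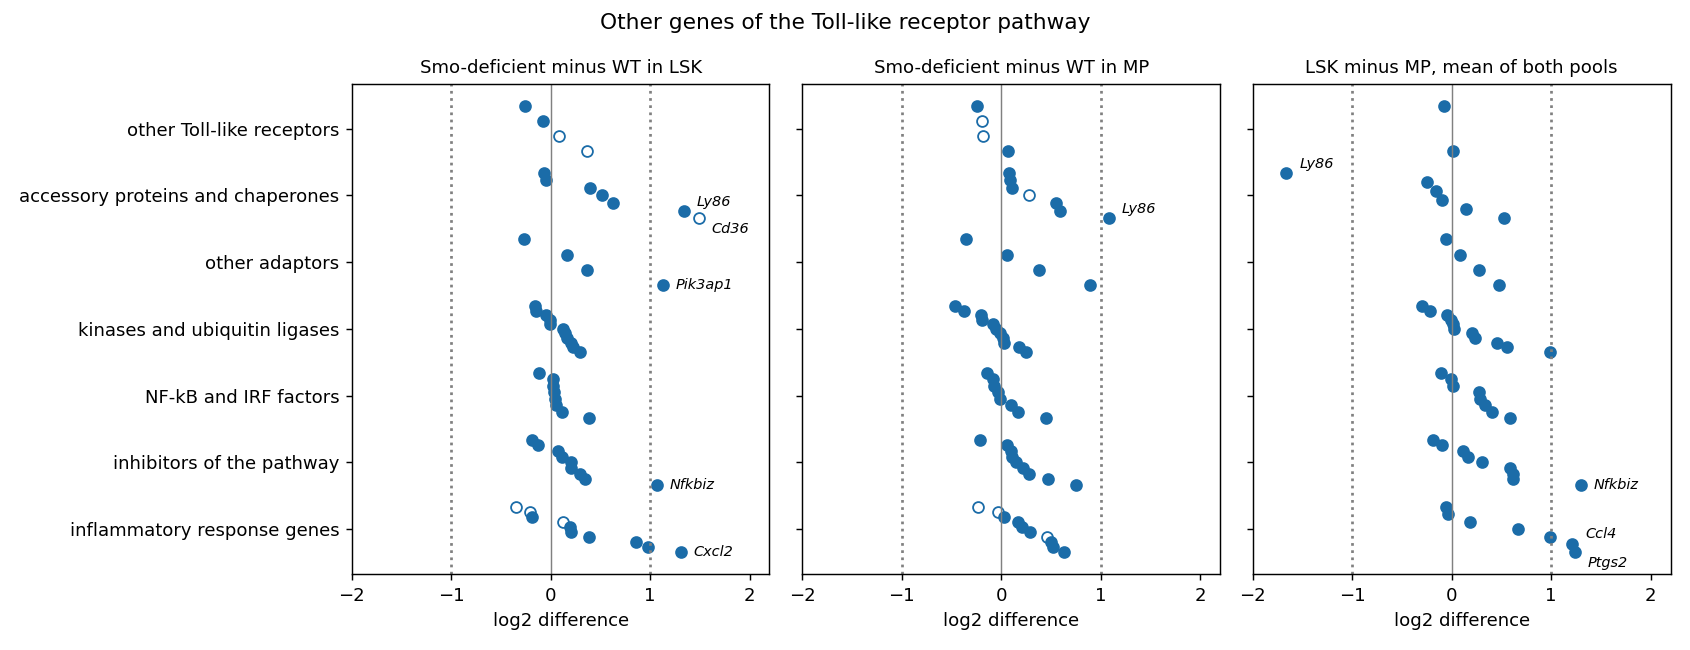
Log2 differences (horizontal axes) of the other pathway genes by group, for Smo-deficient minus WT in LSK (left), in MP (middle) and for LSK minus MP as the mean of both pools (right). Each circle is 1 gene, open when below the filter, dotted lines mark 2-fold and genes beyond them are named; Ly86 is 2-fold higher in Smo-deficient cells of both populations and far lower in LSK than in MP (-1.66).

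Tlr4 and Cd14 were the genes past the filter that ranged over at least 1 on the log2 scale across the 4 arrays. Genes with a like pattern were sought by the root mean square distance between array values centred on each gene's mean, over 11904 genes and 4 arrays. The nearest to Tlr4 were Fchsd2 (0.04), Neurl3 (0.05) and Mctp1 (0.06), and the nearest to Cd14 were Idh1 (0.04), H3c7 (0.04) and Xdh (0.07). With 4 arrays such distances describe these arrays alone.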

How the data were processed

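Expression was measured on Affymetrix mouse arrays in 4 samples, 1 per group, from 20 ng of total RNA through a 2-cycle amplification, per the labels. The authors deposited intensity values made with RMA, per the submitters' processing notes, with no version given in the sources used here. With a lowest value of 12.3 and a highest of 44290.5 they were treated as linear, and converted to log2 with no pseudocount. Array medians over all probe sets lie between 7.22 and 7.23 on the log2 scale, and the deposited distributions are close but not identical. Over the probe sets past the filter the medians ran from 9.09 (Smo-deficient MP) to 9.25 (Smo-deficient LSK). The 64 control probe sets were left out, and 22518 probe sets with a mean above the 50th percentile were kept for counts and tests. Gene names came from the platform annotation (34945 probe sets with 1 gene symbol, 932 with several and 9160 with none). LSK was tested against MP with limma 3.58.1 (R 4.3.3; lmFit, eBayes with trend, two-sided, genotype as a block), after a check on simulated data. The p-values rest on how the LSK minus MP difference varies between 2 pools of different genotype, moderated by the spread of other probe sets. With 1 residual degree of freedom, noise and a difference that depends on genotype cannot be told apart. The number of pools limits the precision. The genes, lists and tests were chosen with earlier results of these data known. All 10 genes are named. Of the pathway genes past the filter, the 3 with the highest and the 3 with the lowest difference per comparison are named. For LSK against MP these were taken among those called. Partner proteins of the receptors and Lbp, Unc93b1, Cnpy3, Hsp90b1, Tnf and Il6 are also named, chosen after their values were seen. Alternatives were quantile and cyclic loess normalization, no filter, 16 added before log2, no block, no trend and a 1.5-fold threshold.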

Additional observations from a re-analysis of the deposited data

How the results depend on the processing

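The calls of Tlr4 (1418162_at), Cd180 and Cd14 between LSK and MP kept their direction and their side of the threshold under quantile and cyclic loess normalization, no filter, 16 added before log2 and no trend. Without the pool as a block the 2 higher and 1 lower calls became 1 and 0, those of Cd180 and Cd14 being lost, the pathway calls fell from 15 higher and 1 lower to 2 and 0, and all calls to 918 higher and 140 lower. Pathway genes called lower numbered 2 after quantile normalization and with no filter. Of all probe sets, 2570 were called lower after quantile normalization against 1618, and the share of calls that were higher in LSK moved from 67.7% to 53.7%. At 2-fold, 102 probe sets were higher in Smo-deficient MP after cyclic loess against 63. With no filter, 221 of 45037 probe sets were higher in Smo-deficient LSK, against 134 of the 22518 past the filter, so these counts have different totals. At 1.5-fold, 2 of the 10 genes (Cd14 and Tlr7, the latter below the filter) were higher in Smo-deficient LSK, beside 689 probe sets higher and 199 lower, and in MP 530 were higher and 593 lower. The genotype difference of Cd14 in MP moved from 0.52 to 0.60 after quantile and 0.63 after cyclic loess normalization, past 1.5-fold in both. That of Myd88 in MP moved from -0.18 to -0.07 and -0.06 in the same order. The cause of these shifts was not tested. Dim signal limits Tlr1, Tlr3 and Tlr7. LSK and MP were paired by pool except in the fit without the block; for genotypes no paired analysis was possible because each is 1 pool. Leaving out an array was not run, since each group has 1.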
